A study of Homo sapiens with 6 samples.

Results

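The transcripts of 8 transcription factors that set pancreatic and gut identity, GATA6, FOXA1, FOXA2, HNF4A, HNF4G, KLF5, CDX2 and PDX1, were followed in AsPC-1 cells given a glutamine antagonist. AsPC-1 is an established human pancreatic adenocarcinoma line. The genes were taken by symbol, and all 8 were found among the 26228 rows of the expression table. Vehicle or DON (6-diazo-5-oxo-L-norleucine) was applied for 24 h without serum, and each of these groups has 3 libraries. The routine growth medium, RPMI, held 10% fetal bovine serum. DON is a glutamine analog that blocks enzymes which use glutamine, and the study asked which genes respond to that block. All libraries come from 1 cell line, and no label tells whether replicates were separate cultures. The p-values therefore describe variation among these libraries, part or all of which may be technical. Values are FPKM, that is fragments per kilobase of transcript after scaling by each library's mapped fragments, and thus a level per length.

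These factors divide the work of building and keeping an endodermal epithelium. GATA and FOXA proteins are pioneer factors, which can bind DNA within closed chromatin and open it for others. HNF4 proteins are nuclear receptors that hold enhancers of liver, gut and pancreatic epithelium active, KLF5 is a zinc finger factor of dividing epithelium, and CDX2 and PDX1 are homeodomain factors of the intestine and of the duodenum and pancreas. In pancreatic adenocarcinoma, GATA6, HNF4A and their partners are known as marks of the classical, gland-forming tumour type, and their loss as a mark of the basal-like type.

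Of the 7 factors that could be tested, 5 were lower in DON, FOXA1, HNF4A, HNF4G, PDX1 and GATA6. None was called higher. KLF5 and CDX2 did not pass the test, and FOXA2 stood at the lowest value of the table in every library. A gene was called when its adjusted p in limma was under 0.05, and by this rule 38.9% of all 11471 tested genes were called, 20.6% as lower and 18.3% as higher. In 5 of the 7 the DON libraries all lay below the vehicle libraries, which held for 26.5% of all tested genes. The median log2 fold change of the 7 was -0.59, against -0.012 over all tested genes. RNA of whole cultures was measured, so fewer cells with a transcript and less of it per cell cannot be told apart.

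**Figure D1:**
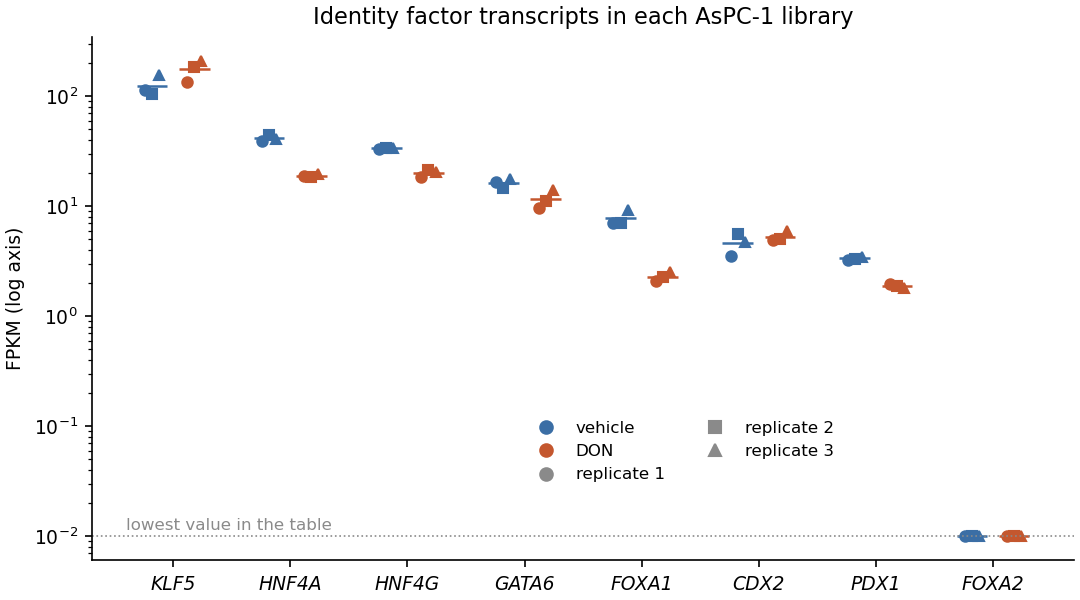
FPKM of each of the 8 identity factors (horizontal axis) on a log vertical axis, by library. Blue marks are vehicle and orange marks DON, the mark's shape gives the replicate number and the short line is the group mean. FOXA1, HNF4A, HNF4G, PDX1 and GATA6 do not overlap between groups, KLF5 and CDX2 do, and FOXA2 lies on the dotted line at 0.01 FPKM.

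In vehicle cells the FPKM levels ran, from high to low, KLF5, HNF4A, HNF4G, GATA6, FOXA1, CDX2, PDX1 and FOXA2. This order rests on transcript lengths that are not given. No pair of neighbours in that order overlapped between libraries. KLF5, at a mean of 125 FPKM, lay above 94.3% of tested genes, whereas PDX1, at 3.36 FPKM, lay above 16.7%. In DON cells HNF4A and HNF4G overlapped, and FOXA1 stood below CDX2 instead of above it.

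GATA6, a zinc finger pioneer factor needed to form the pancreas, fell modestly. Its vehicle libraries read 16.5, 14.7 and 17.5 FPKM and its DON libraries 9.68, 11.2 and 14.2 FPKM. The groups did not overlap, but DON 3 came close to vehicle 2. The mean went from 16.3 ± 1.46 to 11.7 ± 2.29 FPKM (SD, n = 3 each), which is 72.0% of vehicle. The log2 fold change was -0.45 ± 0.14 (SE; 95% interval -0.80 to -0.11), with a limma adjusted p of 0.0440. The call was lost without vehicle 1 (adjusted p = 0.110), vehicle 2 (0.0629), vehicle 3 (0.0994), DON 1 (0.0862) or DON 2 (0.130), and after removal of each library's trend with GC content (0.131). It was also lost under median-of-ratios scaling (0.0519), quantile normalization (0.0512) and with no filter on low values (0.171).

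The other GATA genes held less transcript than GATA6. GATA4, the partner of GATA6 in early pancreas, read 4.01, 3.81 and 4.53 FPKM in vehicle and 2.71, 3.02 and 2.999 FPKM in DON. Its log2 fold change was -0.39 (limma adjusted p = 0.0250), a call that did not hold without vehicle 3 (0.0686), DON 1 (0.0593), DON 2 (0.0761) or DON 3 (0.0699), with no filter (0.0638) and under the GC correction (0.423). Summed, GATA4 and GATA6 held 20.4 ± 1.81 FPKM in vehicle and 14.6 ± 2.42 FPKM in DON. GATA2 and GATA3 never passed 0.751 FPKM, and GATA1 and GATA5 were listed at 0.01 FPKM throughout. GATA6-AS1, the non-coding RNA beside GATA6, reached at most 0.509 FPKM. The use of strand in the authors' counting is not given, so reads of the pair may not be separated.

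FOXA1, the pioneer factor that opens enhancers for nuclear receptors, fell the most of the 7 tested factors. Its promoter is shown because no other factor of the group lost as large a share of its transcript. The window is the 250 bases before the RefSeq start, chr14:37595250-37595499 of GRCh38.p14, minus strand, written along the gene.
FOXA1: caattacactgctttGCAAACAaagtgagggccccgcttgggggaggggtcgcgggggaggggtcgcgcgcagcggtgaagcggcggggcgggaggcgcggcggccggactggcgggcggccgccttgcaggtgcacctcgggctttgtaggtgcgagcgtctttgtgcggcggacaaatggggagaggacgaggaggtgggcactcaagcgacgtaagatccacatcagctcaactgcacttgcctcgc
Capitals mark GCAAACA, the reverse complement of the forkhead variant TGTTTGC, 235 to 229 bases before the start. Of 35116 RefSeq windows of this length, 3.23% hold TGTTTGC on either strand. The window is 67.2% G and C, with 26 CpG.

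FOXA1 read 7.09, 7.004 and 9.35 FPKM in vehicle and 2.09, 2.27 and 2.54 FPKM in DON. The groups lay far apart, and FOXA1 went from above CDX2 to below it. The mean went from 7.81 ± 1.33 to 2.30 ± 0.227 FPKM, a 3.40-fold drop to 29.4% of vehicle. The log2 fold change was -1.41 ± 0.13 (95% interval -1.72 to -1.10), with a limma adjusted p of 0.000383.

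FOXA2, the forkhead factor that acts beside FOXA1 in liver, gut and islets, was listed at 0.01 FPKM in all 6 libraries. With no value above that floor, no fold was formed, nor a ratio of FOXA1 to FOXA2. FOXA3 stayed between 0.394 and 0.829 FPKM, too low for the filter. LINC00261, a non-coding RNA beside FOXA2, was also at 0.01 FPKM throughout. The FOXA genes together held 8.57 ± 1.27 FPKM in vehicle and 2.85 ± 0.109 FPKM in DON, 33.3% of vehicle, so FOXA1 made up most of this sum.

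HNF4A, a nuclear receptor that drives liver, gut and pancreatic epithelial genes, is known to start from a downstream promoter (P1) and an upstream one (P2). In RefSeq these starts lie 45540 bases apart, and the gene-level value joins their transcripts. The window of the upstream start is shown, chr20:44355449-44355698 of GRCh38.p14, plus strand, because it holds a match for another family of the group.
HNF4A upstream start: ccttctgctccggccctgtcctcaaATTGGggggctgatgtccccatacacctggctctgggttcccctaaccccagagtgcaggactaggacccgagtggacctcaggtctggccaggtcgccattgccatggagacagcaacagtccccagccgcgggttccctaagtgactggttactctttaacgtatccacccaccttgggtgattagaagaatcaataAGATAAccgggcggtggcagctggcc
Capitals mark AGATAA, the letters searched for GATA proteins, at 26 to 21 bases before the start (9.17% of all windows). They also mark ATTGG, the reverse complement of the CCAAT box, at 225 to 221 (32.0%). A match is a run of letters and does not show that a protein binds there.

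HNF4A read 38.9, 44.6 and 40.7 FPKM in vehicle and 18.8, 18.4 and 19.5 FPKM in DON. The DON libraries lay close together, far below the lowest vehicle library. The mean went from 41.4 ± 2.91 to 18.9 ± 0.565 FPKM, a 2.19-fold drop. The log2 fold change was -1.09 ± 0.08 (95% interval -1.29 to -0.89; limma adjusted p = 0.000194). HNF4A-AS1, the antisense gene, was at 0.01 FPKM in all 6 libraries.

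HNF4G, the paralog best known from intestine, started close to HNF4A. It read 33.0, 33.8 and 33.7 FPKM in vehicle and 18.6, 21.3 and 20.5 FPKM in DON. The vehicle libraries were nearly level and all lay above DON. The mean went from 33.5 ± 0.416 to 20.1 ± 1.40 FPKM, which is 60.0% of vehicle. The log2 fold change was -0.71 ± 0.08 (95% interval -0.91 to -0.51; limma adjusted p = 0.000908).

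The HNF4 pair also differed in its ratio between the groups. The ratio of HNF4A to HNF4G was 1.18, 1.32 and 1.21 in vehicle and 1.01, 0.863 and 0.949 in DON. The FPKM of HNF4A thus exceeded that of HNF4G in every vehicle library and in DON 1 only among the DON libraries. The transcript lengths behind FPKM are not given, so the side of 1 on which a ratio falls may depend on them. The difference in the log2 ratio of FPKM + 1 was -0.38, and the groups did not overlap. An exact two-sided permutation test gave p = 0.1, the smallest that 20 arrangements of 6 libraries allow. Under the GC correction the log2 fold changes lay closer together, at -1.04 for HNF4A and -0.85 for HNF4G, against -1.09 and -0.71 in the reported fit. The ratio was not recomputed under that correction. Together the pair held 74.9 ± 3.26 FPKM in vehicle and 39.0 ± 1.44 FPKM in DON, 52.0% of vehicle.

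**Figure D2:**
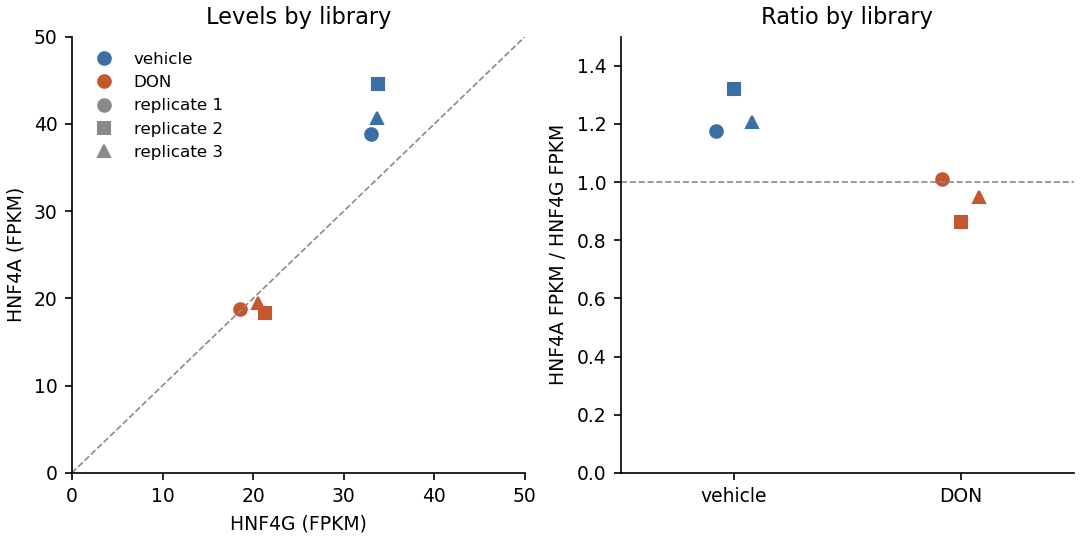
Left, HNF4A FPKM against HNF4G FPKM, 1 point per library, with the dashed line of equal levels. Right, the ratio of HNF4A to HNF4G by group. Blue is vehicle, orange DON and shapes give the replicate number. Vehicle ratios lie between 1.18 and 1.32 and DON ratios between 0.863 and 1.01.

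KLF5, which keeps gut and pancreatic tumour epithelium dividing, was the most abundant of the 8 and did not pass the test. It read 113, 105 and 156 FPKM in vehicle and 134, 183 and 211 FPKM in DON. Vehicle 3 lay above DON 1, so the groups overlapped. The mean was 125 ± 27.3 FPKM in vehicle and 176 ± 39.0 FPKM in DON, a ratio of 1.41. The log2 fold change was 0.49 ± 0.21, its 95% interval ran from 0.00095 to 0.98, and the limma adjusted p was 0.102. KLF5 passed the test without vehicle 3 (0.66, adjusted p = 0.0356) and without DON 1 (0.67, 0.0262). It also passed with a term for the split of libraries described next (0.31, 0.00944), where its SE was 0.072. That split was drawn from these same values, so its term takes up spread between libraries and the adjusted p is no separate support. The fit with the replicate number as a block is given at the end.

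The split is the sign of the second principal component, which held 19.7% of the variance and put vehicle 3, DON 2 and DON 3 on one side. Scores were graded, from 26.3 in DON 1 through 12.9 in vehicle 1, 6.16 in vehicle 2, -4.74 in DON 2 and -13.98 in DON 3 to -26.7 in vehicle 3. The gap at the split was narrower than the widest gap on either side, so the libraries do not form separate groups, and no label names the split. On its sides, with 1 library in 1 of the groups and thus no test, the log2 fold change of KLF5 was 0.30 among vehicle 1, vehicle 2 and DON 1 and 0.33 among vehicle 3, DON 2 and DON 3. The groups of the 5 called factors did not overlap, so a lower DON value on both sides was fixed in advance. Their log2 fold changes were -1.38 to -0.54 on the first side and -1.61 to -0.45 on the second.

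Among 16 other KLF genes, 9 were tested, 2 rose, 1 fell and the median log2 fold change was 0.04. Counts of this and later lists can be set against the 18.3% of all tested genes called higher and the 20.6% called lower. KLF6, a widely expressed relative, went from 145 ± 5.73 to 180 ± 4.93 FPKM (log2 fold change 0.31, limma adjusted p = 0.0170), a call that did not hold without vehicle 1 (0.0506) or DON 2 (0.0743). KLF3, a repressor, had a log2 fold change of 0.35 (0.0260), a call that did not hold without vehicle 1 (0.0773), vehicle 2 (0.0909), DON 2 (0.106) or DON 3 (0.0891). KLF11, a TGF-beta-responsive relative, fell from 7.50 ± 0.0791 to 4.98 ± 0.672 FPKM (-0.51, 0.00959). Of 10 genes known to act on KLF5 protein stability, 9 were tested, with 1 higher and 2 lower. WWTR1 (TAZ), which shields KLF5 from ubiquitination, fell from 20.1 ± 1.18 to 14.2 ± 0.475 FPKM (-0.47, 0.00516). STUB1, a ubiquitin ligase, fell from 112 ± 18.1 to 65.9 ± 12.5 FPKM (-0.75, 0.0126; 0.0524 without DON 2). USP3, a deubiquitinase, had a log2 fold change of 0.66 (0.0253), a call that did not hold without vehicle 1 (0.0733), vehicle 2 (0.0821), DON 2 (0.0914) or DON 3 (0.0781). With no filter, the calls of KLF3 (0.0697), STUB1 (0.0847) and USP3 (0.133) were also lost. Protein was not measured.

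CDX2, the master factor of intestinal epithelium, showed no change beyond the spread between libraries. It read 3.57, 5.63 and 4.76 FPKM in vehicle and 4.90, 5.09 and 5.94 FPKM in DON. The groups overlapped, with vehicle 2 above DON 1 and DON 2. The mean was 4.65 ± 1.03 FPKM in vehicle and 5.31 ± 0.555 FPKM in DON, with a log2 fold change of 0.17 ± 0.16 (95% interval -0.19 to 0.54; limma adjusted p = 0.412). The interval holds 0 and changes of either sign, so these libraries neither show nor exclude a change of that size. The promoter of CDX2 is shown beside those of the factors that fell. Its window is chr13:27969316-27969565 of GRCh38.p14, minus strand, written along the gene.
CDX2: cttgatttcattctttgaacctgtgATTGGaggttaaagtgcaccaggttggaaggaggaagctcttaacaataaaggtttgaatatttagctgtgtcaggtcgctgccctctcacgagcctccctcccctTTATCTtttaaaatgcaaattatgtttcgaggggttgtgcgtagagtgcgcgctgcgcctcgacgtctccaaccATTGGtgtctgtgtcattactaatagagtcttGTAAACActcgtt
Capitals mark TTATCT, the reverse complement of AGATAA, at 119 to 114 bases before the start, and GTAAACA, the reverse complement of the forkhead motif TGTTTAC, at 13 to 7. They also mark ATTGG, the reverse complement of the CCAAT box, at 225 to 221 and at 45 to 41. TGTTTAC occurs in 2.98% of all windows.

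The 7 windows of 5 factors were in the RefSeq table, and each was searched on both strands for short motifs, 9 of which are given here. GATA proteins were searched as AGATAA, forkhead proteins as TGTTTAC or as TGTTTGC and HNF4 proteins as CAAAGTCCA. KLF proteins were searched as CCACACCC, CDX proteins as TTTATGG and ATF4 with a C/EBP partner as TGATGNAA. The general promoter elements were TATAAA (10.7% of all windows) and the CCAAT box. None of the matches overlapped another. The HNF4, KLF, CDX and ATF4 letters were found in none of the 7 windows, against 0.325%, 2.97%, 2.30% and 3.14% of all windows. The windows of GATA6 and KLF5 held matches to general promoter elements alone. A GATA or forkhead match stood in front of FOXA1, CDX2 and the upstream start of HNF4A. The window of the downstream HNF4A start held neither. Of these factors FOXA1 and HNF4A fell and CDX2 was not called.

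PDX1, the homeodomain factor that founds the pancreas and keeps beta cells, fell from an already low level. It read 3.26, 3.31 and 3.50 FPKM in vehicle and 1.95, 1.89 and 1.83 FPKM in DON. Both groups were tight and did not overlap. The mean went from 3.36 ± 0.123 to 1.89 ± 0.0637 FPKM, a 1.78-fold drop. The log2 fold change was -0.59 ± 0.10 (95% interval -0.82 to -0.36; limma adjusted p = 0.00381). At this level the added 1 FPKM shrinks the fold change, which was -0.80 with an added 0.1 FPKM. It was smaller under quantile normalization, at -0.51, and under the GC correction, at -0.40 (limma adjusted p = 0.0262).

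PDX1 and CDX2 are next to each other on chromosome 13 in RefSeq, with GSX1 on the far side of PDX1 and URAD on that of CDX2. GSX1 and URAD stood at or near the floor, at no more than 0.0144 FPKM, as did FLT3. Of the other genes around the pair, 4 were tested, 2 rose and none fell. POLR1D, a subunit shared by RNA polymerases I and III, had a log2 fold change of 0.66 (limma adjusted p = 0.0225), and PAN3, a deadenylase subunit, one of 0.27 (0.0366). The count became 0 without vehicle 1, vehicle 2, DON 2 or DON 3, and 1 without vehicle 3. POLR1D was also lost with no filter (0.126), and PAN3 under the GC correction, where its log2 fold change was 0.16 (0.194).

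**Figure D3:**
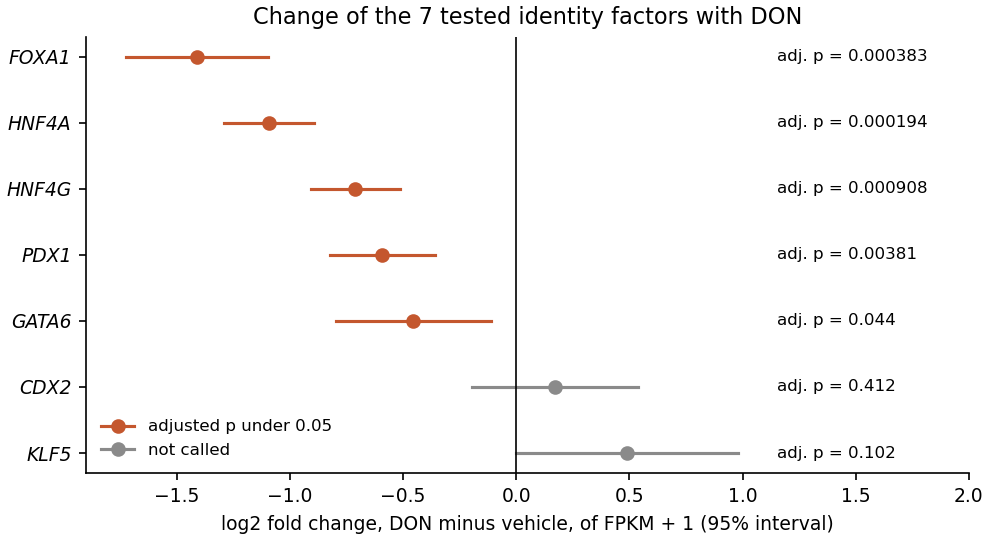
Log2 fold change of FPKM + 1 (DON minus vehicle, horizontal axis) for the 7 tested factors. Points are limma estimates, bars 95% intervals and the number at the right the adjusted p. Orange marks the 5 called factors, from FOXA1 at -1.41 to GATA6 at -0.45, and grey marks CDX2 and KLF5.

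The calls of FOXA1, HNF4A and HNF4G held in all 16 alternatives, and that of PDX1 in all 15 in which it was tested, while CDX2 was called in none of 16. The plot of adjusted p under each alternative shows GATA6 and KLF5 as the factors that crossed the threshold.

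**Figure D4:**
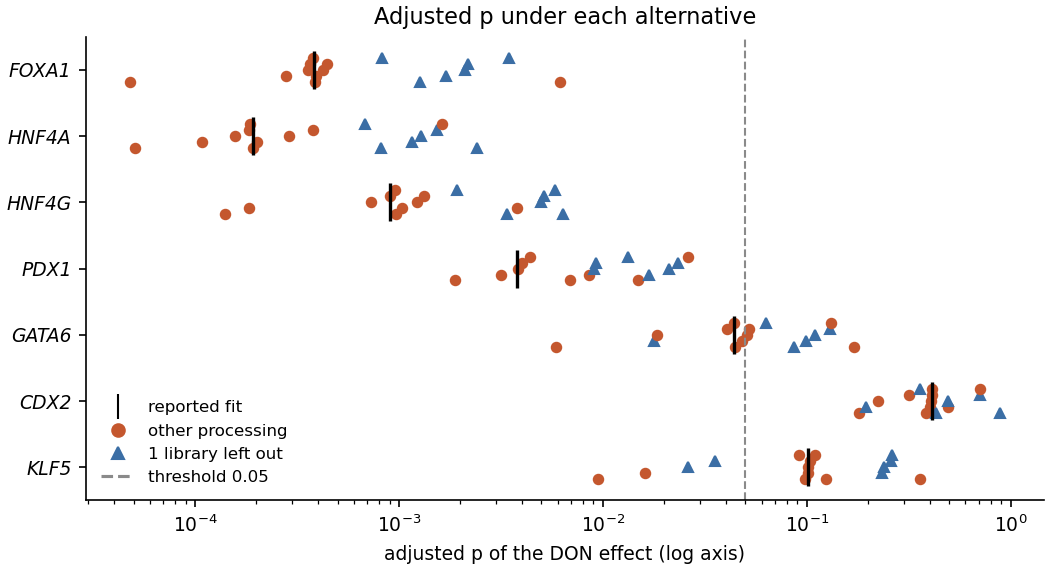
Adjusted p of the DON effect (log horizontal axis) for each tested factor. The black bar is the reported fit, orange circles are other processing choices, blue triangles fits with 1 library left out and the dashed line the threshold of 0.05. Points of FOXA1, HNF4A, HNF4G and PDX1 all lie left of the line, those of CDX2 all lie right of it, and GATA6 and KLF5 have points on both sides.

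For each tested factor, the 3 genes with the most similar pattern over the 6 libraries were found by Pearson r of log2(FPKM + 1) among 8343 or 8344 genes averaging 5 FPKM or more. The points share 2 treatment groups, so r rises with any difference between them and is given as a description. For FOXA1 they were PLAT, MKI67 and TOB1 (all r = 0.999), plasminogen activator, a proliferation marker and an antiproliferative factor. For HNF4A they were CDCA7, SOWAHA and DHX9, and for PDX1 they were EDN1, CDCA2 and FAM83D, with r of 0.998 to 0.999. For HNF4G they were PSME3, SUCLA2 and SLC2A1, a proteasome activator, a Krebs cycle ligase subunit and the glucose transporter GLUT1.

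Such likeness was common for factors whose groups lay far apart. Of the genes compared, 14.1% had an r above 0.9 with FOXA1, 15.5% with HNF4A, 14.5% with HNF4G and 15.7% with PDX1. The share was 4.15% for GATA6, 7.96% for KLF5 and 0.288% for CDX2. The nearest gene to GATA6 with a symbol of its own was UBAC2 (r = 0.991), after the read-through NDUFC2-KCTD14, which may share reads with NDUFC2. For KLF5 the nearest genes were CERS2, DRAM2 and AKAP9, and for CDX2 they were PNRC2, ZNF524 and UBP1.

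The wider set of 36 endoderm and pancreas factors was led by SOX9 and BHLHA15, which moved in opposite directions. Of 15 tested, 6 fell and 2 rose, with a median log2 fold change of -0.35. SOX9, the duct and progenitor factor, read 31.8, 28.0 and 31.9 FPKM in vehicle and 7.78, 6.42 and 7.74 FPKM in DON (-1.93, limma adjusted p = 5.8e-05). NR0B2 (SHP), a corepressor that binds HNF4A, fell from 36.4 ± 2.27 to 17.7 ± 0.840 FPKM (-0.999, 0.000266). ISL1, an islet factor, fell from 10.5 ± 1.501 to 4.53 ± 1.29 FPKM (-1.08, 0.00537). BHLHA15 (MIST1), a factor of secretory cells, rose from 1.56 ± 0.651 to 25.7 ± 6.43 FPKM (3.39, 0.000114). NKX6-1 and PTF1A were at or near the floor.

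Among 28 other epithelial and intestinal lineage factors, 18 were tested, 9 fell and 1 rose, with a median of -0.26. OVOL2, a zinc finger repressor among the 9, passed the filter through its vehicle libraries alone, which fixes its direction. The higher count was 0 without DON 2 or DON 3 and 2 without vehicle 3. CREB3L1, a membrane-bound factor of secretory cells, fell from 16.4 ± 2.70 to 5.48 ± 0.849 FPKM (-1.42, limma adjusted p = 0.000548). FOXQ1, a forkhead factor of gut mucosa, fell from 25.6 ± 1.41 to 11.1 ± 1.39 FPKM (-1.13, 0.000389). ETV4, an ETS factor downstream of ERK signalling, fell from 50.2 ± 5.08 to 23.4 ± 1.70 FPKM (-1.07, 0.000444). Of 20 cofactors of GATA and HNF4 proteins, 17 were tested, 4 fell and 1 rose, where 20.6% of all tested genes were called lower and 18.3% higher. NCOA3, a nuclear receptor coactivator, rose from 12.3 ± 0.528 to 24.1 ± 1.96 FPKM (0.92, 0.000476), against the direction of NR0B2. The count of lower cofactors became 2 without vehicle 2 or vehicle 3 and 1 without DON 2 or DON 3, and that of higher ones 2 without DON 1.

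Among factors of squamous and mesenchymal programmes, the few that were called were higher in DON. Of 20, 9 were tested, 3 rose and none fell, with a median of 0.28. Over all tested genes 18.3% were called higher and 20.6% lower. SNAI2, a repressor of epithelial genes, rose from 13.2 ± 1.18 to 29.7 ± 5.63 FPKM (1.10, limma adjusted p = 0.00174). FOSL1 and GLI1 were also called higher (0.74, 0.0260 and 0.56, 0.0245), and without vehicle 1, vehicle 2, DON 2 or DON 3 SNAI2 was the 1 call left, as it was with no filter. TP63, which defines the squamous type, did not exceed 0.238 FPKM in any library.

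Genes that mark the classical and the basal-like tumour type were each called lower more often than higher. Of 15 tested classical genes, 10 fell and 1 rose (median -0.63), with 6 lower without vehicle 1. PLA2G10, a secreted phospholipase among the 10, passed the filter through its vehicle libraries alone, which fixes its direction. LYZ, lysozyme, fell from 250 ± 67.8 to 98.5 ± 19.9 FPKM (-1.33, limma adjusted p = 0.00394), and REG4, a secreted lectin, from 8.39 ± 1.05 to 3.44 ± 0.488 FPKM (-1.08, 0.00104). AGR2, an endoplasmic reticulum isomerase, went up from 280 ± 42.0 to 766 ± 92.2 FPKM (1.45, 0.000414). Of 12 tested basal-like genes, 5 fell and 1 rose (median -0.29). FGFBP1, a carrier of fibroblast growth factors, fell from 70.8 ± 2.51 to 9.90 ± 0.596 FPKM (-2.72, 1.61e-05). The gene that rose, AREG, an EGF receptor ligand, passed the filter through its 3 DON libraries alone and was not tested when any of them was left out. LEMD1, a tumour antigen among the 5 that fell (3.66 ± 0.549 to 0.718 ± 0.170 FPKM), passed through its vehicle libraries alone.

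Known target genes of the factors were mostly too low to test. Of 24 liver and gut genes bound by HNF4 factors, 17 stayed below the filter, and of the 7 tested 3 fell, none rose and the median was -0.35. VIL1, the villin of brush borders, read 117, 134 and 124 FPKM in vehicle and 79.8, 73.8 and 67.8 FPKM in DON (-0.75, limma adjusted p = 0.00129). PCK1, a gluconeogenic enzyme, fell from 3.11 ± 0.537 to 0.865 ± 0.148 FPKM (-1.13, 0.00122), and it passed the filter through its vehicle libraries alone. The third, F12, a clotting factor, had a log2 fold change of -0.48 (0.0356). The count of 3 became 1 without vehicle 1 or vehicle 2, when PCK1 missed the filter and F12 the threshold (0.0664 and 0.113). F12 was also lost without DON 2 (0.126) or DON 3 (0.107), with no filter (0.146) and under the GC correction, where its log2 fold change was -0.17 (0.203). Of 16 intestinal genes known as CDX2 targets, 3 were tested and 2 fell while CDX2 did not pass, among them TFF3, a goblet cell peptide, from 6.37 ± 1.29 to 2.77 ± 0.472 FPKM (-0.96, 0.00436). Another 12 stayed below the filter. CDH17 was left out for failure marks in vehicle and not for a low level, as it read 462 to 565 FPKM in DON.

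Of 14 islet genes known as PDX1 targets, 5 were tested, and 3 rose while 1 fell, with a median of 0.79. ATF4, the factor of the amino acid response, went from 191 ± 11.4 to 381 ± 39.1 FPKM (0.99, limma adjusted p = 0.000557). ATP2A2, the calcium pump of the endoplasmic reticulum, went from 89.3 ± 9.30 to 155 ± 9.59 FPKM (0.79, 0.00141). ERO1B, an oxidase of that compartment, read 0.154, 0.272 and 0.205 FPKM in vehicle and 11.1, 9.78 and 10.2 FPKM in DON, and it passed the filter through DON alone. MLXIPL, a glucose-sensing factor, was called lower (-0.91, 0.00649), and without vehicle 1, vehicle 2 or vehicle 3 it no longer reached the filter. Its call was also lost under the GC correction (0.0580). ERO1B passed the filter on DON and MLXIPL on vehicle libraries alone, which fixes the direction of each. Both are in the counts and the median. INS itself was at 0.01 FPKM in all libraries.

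**Figure D5:**
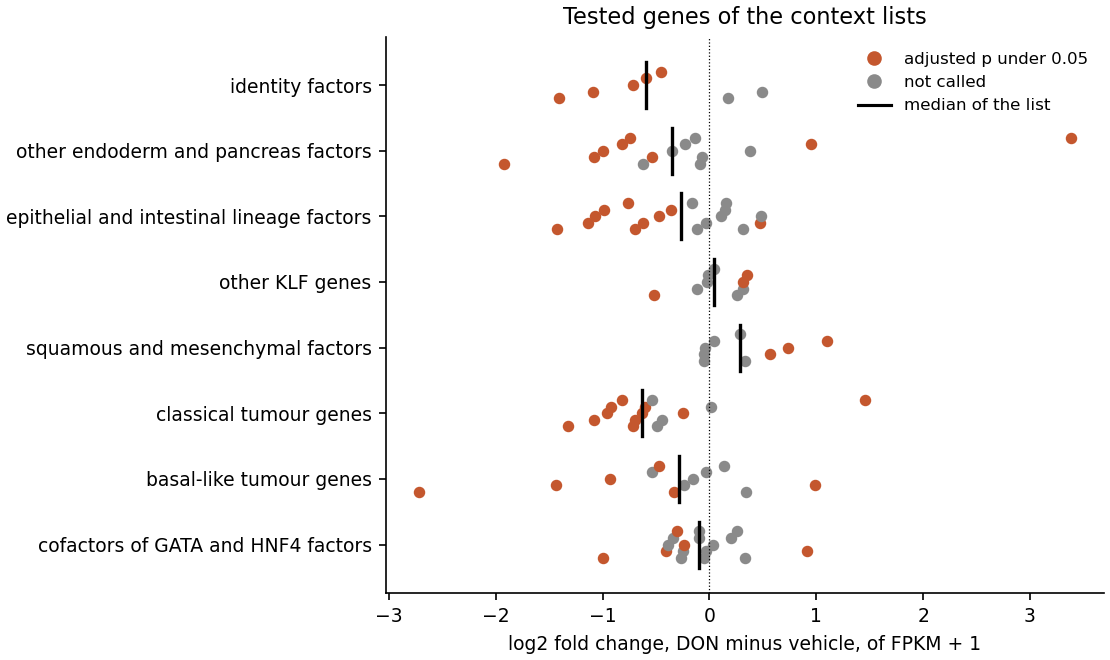
Log2 fold change of FPKM + 1 (DON minus vehicle) of every tested gene in the identity factors and 7 other lists, 1 point per gene, with points spread vertically only for display. Orange is called, grey not called and the black bar the median, which runs from -0.63 in classical tumour genes to 0.28 in squamous and mesenchymal factors. The epithelial list is drawn without HNF4A, HNF4G and KLF5.

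The labelled line was checked against markers, and FPKM sums of the libraries ranged from 525200 to 556950, with 11292 to 11474 genes at 1 FPKM or more. KRT19 (1527 to 2377 FPKM) and EPCAM (928 to 1201 FPKM) marked an epithelium, while CFTR was at the floor. Of 11 ductal markers, 6 were tested, 2 fell and none rose, with a median of -0.21. The 2 were SOX9, given above, and MUC1, from 42.9 ± 12.4 to 19.3 ± 0.831 FPKM (-1.08, limma adjusted p = 0.00452). The MUC1 call was lost under the GC correction (0.0688). KRT8 and KRT18 held failure marks. Without these, ductal markers summed to 2831 to 3657 FPKM in vehicle and 2529 to 3480 in DON. No acinar marker was tested (0 of 16 found), and their summed level was 0.282 to 0.325 FPKM in vehicle and 0.370 to 0.521 in DON. Endocrine markers summed to 12.5 to 18.4 FPKM in vehicle and 6.43 to 9.50 in DON, mostly ISL1. Intestinal markers without CDH17 summed to 141 to 155 and 79.8 to 95.4 FPKM, mostly VIL1. CDH17 held a failure mark in every vehicle library and read 462 to 565 FPKM in DON, above VIL1, so the whole intestinal sum cannot be compared between groups. Hepatocyte markers summed to 3.23 to 5.49 and 1.72 to 3.48 FPKM, and endothelial ones to at most 0.929. Fibroblast markers summed to 143 to 173 and 89.7 to 125 FPKM, nearly all LUM, with COL1A1 at no more than 0.0766. Immune markers summed to 233 to 357 and 102 to 152 FPKM, nearly all LYZ and CD68, with PTPRC at no more than 0.258. The part of these differences in the fall of the identity factors was not tested.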

How the data were processed

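Poly(A) RNA of AsPC-1 cells was made into directional libraries and sequenced as single 75 bp reads, per the labels' protocols. The authors deposited FPKM values, 1 row per gene symbol, and the submitters' processing notes name STAR and hg19 for the alignment. Not given in the sources used here are the program behind FPKM, the annotation, the use of strand and whether libraries were scaled to each other. The lowest value is 0.01, at which 40.3% to 45.8% of rows per library stand. In 41 rows, 72 cells held a failure mark, and these genes were not tested. Dates stand in place of 28 symbols, and 4 rows share a symbol.

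Without read counts the depth is unknown, and counting intervals cannot be formed. Steps among values up to 0.3 FPKM put the other libraries at roughly 1.25 to 1.69 times the depth of vehicle 1. Each figure is the commonest ratio to vehicle 1, shared by 46 to 71 of the 671 to 768 genes compared per library, and is thus a rough estimate.

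Values were transformed to log2(FPKM + 1), which understates the change of low genes. Testing covered genes that reached 1 FPKM in 3 or more of the 6 libraries, with limma 3.58.1 (R 4.3.3; moderated variances with an intensity trend, two-sided, no block), and Benjamini-Hochberg adjustment ran over all 11471. Fold values are ratios of mean FPKM. The script was tested on simulated data. Python 3.11.15 was used with numpy 2.4.6, scipy 1.17.1, pandas 2.3.3 and, for plots, matplotlib 3.10.9.

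The 8 factors, the 22 other gene lists (some genes are in several) and the motif letters were chosen with earlier results of these data known, so the lists are described by counts and medians without a set test. Of 368 entries, 362 were found. Named genes were all 8 factors, up to 4 called genes with the largest change per list, paralogs, the genes next to PDX1 and CDX2, and the 3 genes most like each factor. Some genes and matches so found are not reported here. Promoter windows came from RefSeq (GRCh38.p14), and 5 of the 8 factors matched. RefSeq was used otherwise for gene order alone, since the deposited values are on hg19.

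The alternatives were quantile normalization, median-of-ratios scaling, a filter at 5 FPKM or none, a pseudocount of 0.1 FPKM, a replicate block, limma without a trend, a term for the split along the second principal component, a GC correction (GC from GENCODE transcripts, known for 95.0% of tested genes), keeping genes with a failure mark, and leaving out each library.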

Additional observations from a re-analysis of the deposited data

How the results depend on the processing

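Over 16 alternatives, the 7 tested factors gave 111 values, of which 98 kept their direction and side of the threshold, 9 lost the call, 4 gained it and 0 reversed. All 13 changes belong to GATA6 and KLF5. GATA6 was -0.45 with no filter, -0.44 under median-of-ratios scaling, -0.44 under quantile normalization and -0.35 under the GC correction, and -0.59 to -0.34 with 1 library left out, when the call held without DON 3 alone (adjusted p 0.0179). KLF5 was 0.31 with the split term and 0.35 to 0.67 with 1 library left out. The adjusted p of FOXA1 stayed at or below 0.00617, of HNF4A 0.00241, of HNF4G 0.00636 and of PDX1 0.0262, while that of CDX2 ran from 0.180 to 0.889. FOXA2 gave no value above the floor.

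Over all genes, 4459 calls became 2942 with no filter and 2688 to 4639 with 1 library left out, the lowest without DON 2. With no filter, lower classical tumour genes numbered 5 and higher squamous and mesenchymal factors 1. Of 647 values of 42 named genes of the lists, 576 were unchanged in call and direction, 69 lost the call, 2 gained it and 0 reversed. The cause was not tested.

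The labels number the replicates of both groups 1 to 3. Deviations of same-numbered libraries correlated at 0.254, -0.184 and 0.502, and those of differently numbered ones at -0.566 to 0.389. With 3 libraries per group these values cannot settle whether the numbers pair the samples. With the replicate number as a block, calls over all genes numbered 5414, and KLF5 was 0.49 with an adjusted p of 0.0161. The block changed no other call among the 7 factors. Absolute depth is unknown, so it cannot be said which low values, such as those of FOXA2, are limited by it.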
